A study of Mus musculus with 4 samples.

Results

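Tek, Tie1, Angpt2 and Ptprb were followed in single CD31+ cells of the mouse aorta. They encode both Tie receptors, angiopoietin 2, which is a ligand of Tek, and a phosphatase that acts on Tek. The 4 genes were chosen by symbol out of 16408 nuclear genes listed in the unique molecular identifier (UMI) tables of 4 plates. Each plate held the cells of 1 mouse, sorted as CD31+ CD45- TO-PRO-3- cells from an enzyme digest of the whole aorta into 384 wells and sequenced from the 3′ end of polyadenylated RNA by SORT-seq. Plate and mouse cannot be told apart. The mice labelled Epas1 EC-KO (mouse 1 and mouse 2) were Epas1fl/fl, Cdh5Cre/+, and those labelled Epas1 EC-WT (mouse 1 and mouse 2) were Epas1fl/fl, Cdh5+/+. All 4 mice thus carried floxed Epas1, and by the study's methods each was given tamoxifen when 6 weeks old. The aortas were taken 2 weeks after that, and Cre was inducible and driven by the promoter of the EC gene Cdh5. Wells with at least 1000 UMIs and at most 25% of UMIs on mitochondrial genes were kept as cells, which left 157 and 98 cells in the EC-KO mice and 114 and 72 in the EC-WT mice, 441 of 1536 wells.

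In EC, Tek (also called Tie2) is a receptor tyrosine kinase that keeps vessels quiescent when angiopoietin 1, made by mural and other perivascular cells, activates it. Angiopoietin 2 is stored in the Weibel-Palade bodies of EC and can act as an antagonist or a weak agonist of Tek depending on context. Tie1 has no firmly established ligand of its own and forms complexes with Tek that modulate its signal. Ptprb, known as VE-PTP, is a receptor phosphatase of EC that dephosphorylates Tek and associates with VE-cadherin at junctions. Active Tek signals through PI3 kinase and Akt, which restrain FOXO1, a factor that drives Angpt2.

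In the GENCODE M21 annotation of GRCm38, Tek lies on the plus strand at chr4:94739289-94874976 and Tie1 on the minus strand of the same chromosome at chr4:118471191-118490061. Ptprb lies at chr10:116275523-116389535 on the plus strand and Angpt2 at chr8:18690263-18741562 on the minus strand. All 4 are protein-coding. The stretch of 250 bases before the RefSeq start (GRCm38.p6) is shown for both receptor genes, since the levels of these 2 genes parted in 1 cell cluster; Angpt2 and Ptprb had no entry. The RefSeq start of Tie1 lies inside the GENCODE gene, so that 212 of the 250 bases shown for Tie1 are within it, and 0 of those shown for Tek. The sequences run 5′ to 3′ in the direction of the gene, and capitals mark the ETS core GGAA on either strand.
Tek, chr4:94739039-94739288, plus strand: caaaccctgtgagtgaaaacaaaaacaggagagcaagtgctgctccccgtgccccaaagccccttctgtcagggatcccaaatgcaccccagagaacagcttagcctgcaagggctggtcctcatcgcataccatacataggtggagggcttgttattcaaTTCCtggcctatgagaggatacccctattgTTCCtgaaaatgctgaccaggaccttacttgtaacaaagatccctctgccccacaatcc
Tie1, chr4:118489850-118490099, minus strand: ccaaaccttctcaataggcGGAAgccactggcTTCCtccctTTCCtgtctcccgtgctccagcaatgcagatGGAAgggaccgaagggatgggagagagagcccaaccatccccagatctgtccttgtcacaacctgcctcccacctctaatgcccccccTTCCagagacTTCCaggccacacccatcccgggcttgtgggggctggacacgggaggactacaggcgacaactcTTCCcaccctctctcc
The Tek stretch held 2 matches to GGAA and the Tie1 stretch 7, a motif found at least once in 93.4% of 32851 promoter stretches of that length. Neither held the hypoxia-inducible factor core ACGTG, which 16.6% of the stretches hold on either strand. These matches describe the letters only.

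The targeted gene was looked at first. Levels are counts of UMIs per 1000000 UMIs of the cells summed (CPM). In cells outside a smooth muscle-like cluster described below, Epas1, the gene of HIF-2α, took 3079 and 3342 CPM in the mice labelled EC-KO and 3332 and 2415 in those labelled EC-WT. The groups overlapped, and the level was not lower in the mice labelled EC-KO (log2 fold change 0.19, SE 0.21, adjusted p = 0.957, edgeR). Tags at the 3′ end need not show the loss of an internal exon, so these counts do not check the labels. By the labels, more wells were kept from EC-KO than from EC-WT mice, whereas the study's methods attribute the larger number of analysed cells to EC-WT. The mice are therefore called by their labels throughout. Kept cells had a median of 5796, 7419, 3779 and 5753 UMIs in EC-KO mouse 1, EC-KO mouse 2, EC-WT mouse 1 and EC-WT mouse 2. Over all 384 wells of a plate there were 10.5 to 22.1 reads per UMI.

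Clustering with the 4 genes and the pathway lists left out of the variable genes (11 such genes) gave 6 clusters, named here by their leading genes. One of 15 cells was led by Tagln, Myh11, Acta2, Myl9 and Tpm2 and is called smooth muscle-like. Its summed smooth muscle list reached 57678 CPM, and its cells came unevenly from the mice (8, 4, 1 and 2). This cluster was also the highest in the summed pericyte list, at 1543 CPM against at most 67.3 in any other cluster. The same held for the summed fibroblast list, at 8595 CPM against 237 to 3196. The other 426 cells, called remaining cells, held UMIs of all 14 endothelial markers, and their summed endothelial list ranged from 9760 to 12693 CPM over the mice. Immune markers were close to absent in them (5 of 10 listed, at most 7.93 CPM in sum). Of the 5 erythroid markers only Alas2 was listed, with 2 UMIs, so that list says little. Of the 7 genes of the lymphatic list, Prox1, Pdpn and Ccl21a were not listed. The other 4 gave 100 UMIs of Flt4, 73 of Lyve1, 3 of Reln and 1 of Mmrn1, and the list summed to 48.0 to 74.6 CPM over the mice.

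To determine how widely the receptors were present, the share of remaining cells with a UMI was taken per mouse. Tek was detected in 87.2% and 89.4% of remaining cells in the EC-KO mice and in 85.0% and 88.6% in the EC-WT mice. Tie1 was detected in 87.2% and 95.7% against 82.3% and 97.1%. Ptprb was detected in nearly every cell, at 98% and 98.9% against 98.2% and 97.1%. Only 3 of 426 remaining cells held no UMI of any of these 3 genes, and they were shallow, with a median of 1113 UMIs. Both receptors and the phosphatase were found together in 77.9%, 87.2%, 71.7% and 84.3% of remaining cells, in the order of mice given above.

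Because detection depends on depth, every cell was also thinned to 1000 UMIs. Tek was then seen in 53.0% and 42.6% of remaining cells of EC-KO mice and in 47.8% and 48.6% of EC-WT mice, with the EC-WT values between the EC-KO ones. The exact binomial interval of these single-mouse shares was wide, for example 44.7% to 61.2% in EC-KO mouse 1 (95%, Clopper-Pearson, counting error only). For Tie1 the thinned shares were 57.7% and 71.3% against 55.8% and 67.1%, and for Ptprb 88.6% and 92.6% against 87.6% and 88.6%. The differences between the labelled groups in thinned share were -0.39 percentage points for Tek, 3.05 for Tie1 and 2.48 for Ptprb, with exact two-sided permutation p = 1.0 for Tek, 0.67 for Tie1 and 0.33 for Ptprb (n = 2 mice a group). The smallest p that 2 mice against 2 can give is 0.33.

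In the smooth muscle-like cells, which are deep (median 7368 UMIs against 5549 in remaining cells), the shares were lower. Tek was seen in 4 of 15, or 26.7% (7.79% to 55.1%), and Tie1 and Ptprb in 8 each, or 53.3% (26.6% to 78.7%). After thinning, 2 cells held Tek, 3 held Tie1 and 3 held Ptprb, and the shares of the remaining cells were 48.6%, 61.7% and 89.2%. Of these 15 cells, 10 also held UMIs of Pecam1, the gene of the sorted antigen CD31. The 10 cells with Pecam1 held 20 of the 20 Tek UMIs, 57 of the 58 Tie1 UMIs and 86 of the 89 Ptprb UMIs of the cluster. Plate rows L to P, which held no kept cell, were read as background, though whether their wells had received a cell was not tested. Their 480 wells had a median of 47 UMIs and together gave 15 UMIs of Tek, 45 of Tie1 and 79 of Ptprb, so that 3.13%, 7.5% and 13.8% of those wells held a UMI. At that depth these shares cannot be set beside those of cells. Per UMI, Tek stood at 521 CPM in rows L to P against 773 in remaining cells, Tie1 at 1563 against 1047 and Ptprb at 2744 against 3233.

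The comparison of the labelled groups asks whether the receptors changed with endothelial Epas1 genotype. UMIs of remaining cells were summed per mouse, expressed as CPM, and tested with edgeR's quasi-likelihood test over 8145 genes with Benjamini-Hochberg adjustment. Tek stood at 802 and 859 CPM in the mice labelled EC-KO and 776 and 599 in those labelled EC-WT. Both EC-KO values were above both EC-WT values, but EC-KO mouse 1 and EC-WT mouse 1 differed little and their counting intervals (748 to 859 and 709 to 847) overlapped. The mean was 831 ± 40.6 against 687 ± 125 (SD, n = 2). The log2 fold change of 0.30 (SE 0.19) did not pass the test (adjusted p = 0.890, edgeR), and leaving out 1 mouse moved it between 0.11, without EC-WT mouse 2, and 0.53, without EC-WT mouse 1.

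Tie1 stood at 861 and 1289 CPM in the EC-KO mice and 989 and 1128 in the EC-WT mice. The EC-KO values lay on either side of both EC-WT values, and the group means were nearly equal at 1075 ± 303 and 1059 ± 98.1 (SD, n = 2). The log2 fold change was 0.05 (SE 0.20, adjusted p = 0.993, edgeR). Its sign was not stable: it was -0.23 without EC-KO mouse 2, -0.02 without EC-WT mouse 1 and -0.03 when all kept cells were summed.

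Ptprb stood at 3217 and 3503 CPM in the EC-KO mice and 3098 and 3050 in the EC-WT mice. The groups did not overlap, yet the lower EC-KO mouse exceeded the higher EC-WT mouse by less than the 2 EC-KO mice differed from each other. The log2 fold change was 0.16 (SE 0.19, adjusted p = 0.961, edgeR). Of the 3 genes tested none was called, beside 1 of 8145 genes overall (0.0123%), and none reached an unadjusted p under 0.05, beside 5.45% of all genes. Tek and Ptprb were higher in both EC-KO mice than in both EC-WT mice, which was also true of 15.3% of all genes tested, while 19.9% were lower in both. Tie1 was in neither class.

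**Figure D1:**
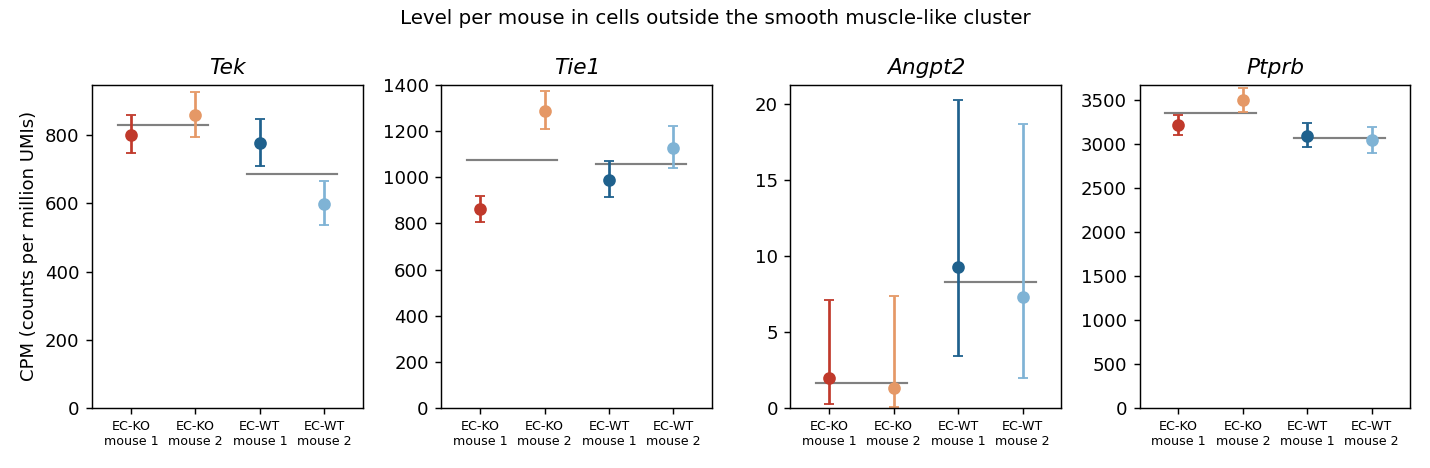
Level of each gene (CPM, linear axes from 0) in remaining cells of each of the 4 mice; points are mice, bars are 95% Poisson intervals that cover counting error only, and grey lines are means of 2 mice. Tek ranges from 599 to 859, Tie1 from 861 to 1289 with the EC-KO mice at both ends, Ptprb from 3050 to 3503, and Angpt2 stays under 10 in every mouse.

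The 1 gene called was Acta2, the smooth muscle actin, at 449 and 636 CPM in remaining cells of EC-KO mice and 146 and 147 in EC-WT mice (log2 fold change 1.91, SE 0.21, adjusted p = 0.0029, edgeR). It was not called with thinned cells (log2 fold change 1.53, adjusted p = 0.422, edgeR), read counts (1.65, adjusted p = 0.849) or the replicate number as a block (1.90, adjusted p = 0.096). Wells of rows L to P gave 106 UMIs of Acta2, or 3682 CPM, against 375 pooled over remaining cells. What such RNA adds to the values of remaining cells was not tested. The smooth muscle list as a whole, of which all 11 genes were listed and Des was lowest with 3 UMIs, summed to 1350 and 1368 CPM in remaining cells of EC-KO mice and 859 and 611 in EC-WT mice. Of the 8 smooth muscle genes tested, 4 had an unadjusted p under 0.05, all higher in EC-KO, beside 2.96% of all genes tested that were so in that direction. The fibroblast list summed to 2956 and 1988 against 1381 and 1720, and 4 of its 7 genes tested had an unadjusted p under 0.05, all higher in EC-KO. The part of these RNAs in the values of Tek, Tie1 and Ptprb was not tested. Within clusters described below, Tek gave 742 and 848 CPM in EC-KO mice against 883 and 776 in EC-WT mice in the Vmn2r55-led, 769 and 956 against 864 and 690 in the Meg3-led, 777 and 624 against 597 and 515 in the Dcn-led and 1075 and 920 against 838 and 624 in the Chad-led. In the Fabp4-led cluster it gave 248 and 376 against 394 and 458, on 3 to 8 cells a mouse. The direction was not the same in all clusters. None of these was tested, and how many other genes part the groups within a cluster was not counted. With 2 mice a group, even values without overlap can give no exact permutation p below 0.33. The names of the deposited tables carry a flow cell, which no label gives as a batch. EC-KO mouse 2 and EC-WT mouse 1 share one, and the other 2 mice each carry another. The pair that shares one gave log2 ratios of 0.15 for Tek, 0.38 for Tie1 and 0.18 for Ptprb, with no test.

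**Figure D2:**
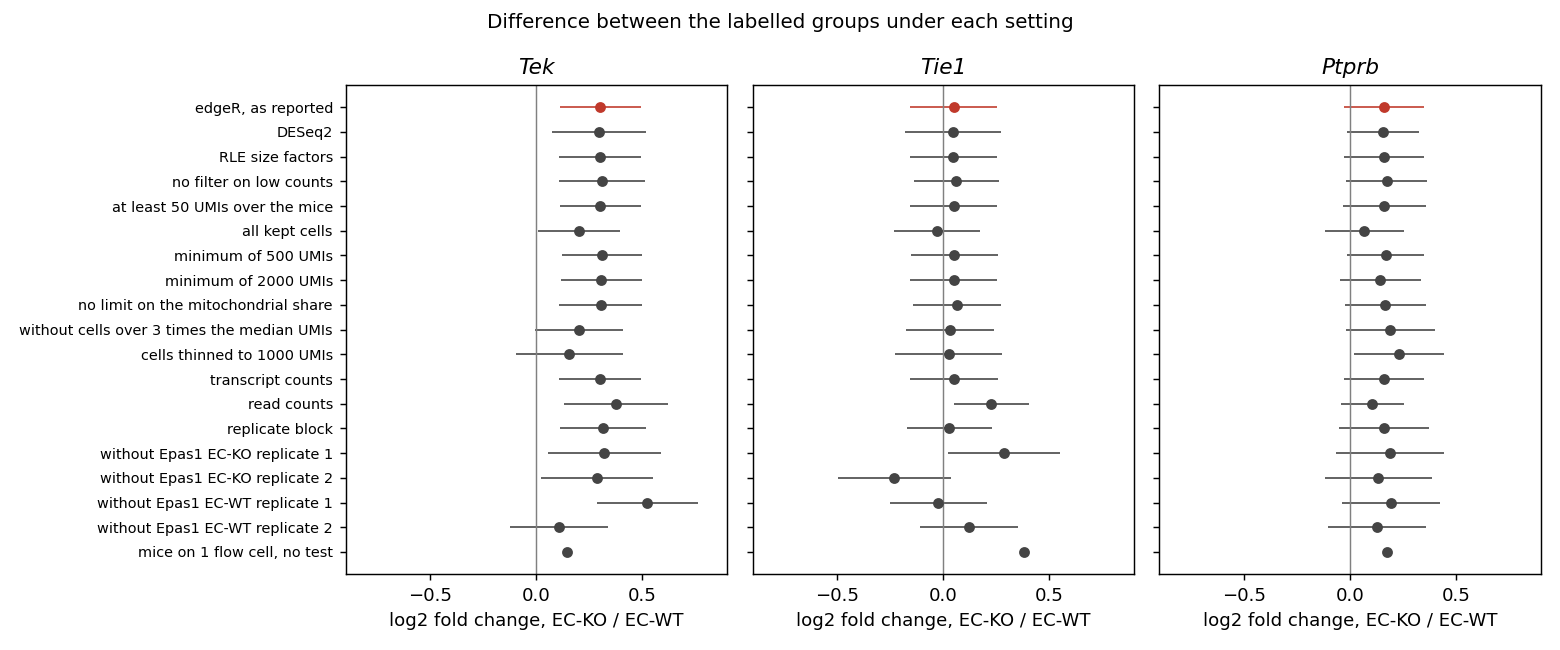
Log2 fold change of Tek, Tie1 and Ptprb (mice labelled EC-KO over EC-WT) under each setting; points are estimates and bars are 1 SE, absent for the pair of mice on 1 flow cell. Tek and Ptprb lie above 0 in every row, whereas Tie1 crosses 0 from -0.23 to 0.38.

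Angpt2 was close to the limit of detection in remaining cells. It gave 2 UMIs in EC-KO mouse 1, 1 in EC-KO mouse 2, 6 in EC-WT mouse 1 and 4 in EC-WT mouse 2, out of 2975552 UMIs in all, and was left out of the test by its filter on low counts. Fitted between mice without that filter it had a log2 fold change of -2.16 (SE 1.2, adjusted p = 0.934, edgeR), with DESeq2 -2.29 (SE 1.67, adjusted p = 1.00) and from read counts 0.16 (SE 2.01, adjusted p = 1.00, edgeR). By cells, 1.34% and 1.06% of remaining cells of EC-KO mice held Angpt2, against 2.65% and 5.71% of EC-WT mice, and after thinning 0 and 0 cells against 1 and 4 (exact permutation p = 0.33 on thinned shares, n = 2). As CPM this was 1.95 and 1.32 against 9.29 and 7.28, while 3 UMIs amount to 2.93, 3.97, 4.65 and 5.46. The ratio of pooled EC-KO to pooled EC-WT levels was 0.201, with an interval of 0.0356 to 0.782 from counting error only. Of the 10 EC-WT UMIs, 4 came from a single cell of EC-WT mouse 1 that also held 54 smooth muscle UMIs among 2844, and without that cell the ratio was 0.335 with an interval of 0.0542 to 1.57. With the smooth muscle-like cells added the ratio was 1.94 (0.928 to 4.44), and this rested on 1 cell of EC-KO mouse 2 with 23 UMIs. Without that cell, a choice made after the data were seen, 8 UMIs against 10 gave 0.514 (0.176 to 1.45).

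Most Angpt2 UMIs lay in smooth muscle-like cells. Of 41 Angpt2 UMIs in all kept cells, 28 were in 4 of the 15 smooth muscle-like cells (156 CPM, Poisson interval 104 to 225) and 13 in 10 of the 426 remaining cells (4.37 CPM, 2.33 to 7.47). A single cell of EC-KO mouse 2 held 23 of the 28. That cell was the deepest of its cluster, at 47621 UMIs, and held 1045 smooth muscle UMIs together with 60 of Pecam1, 12 of Tek, 36 of Tie1 and 60 of Ptprb. Without it the level in the cluster was 37.9 CPM. The other smooth muscle-like cells with Angpt2 held 3, 1 and 1 UMIs, and no Tek. Wells of rows L to P gave 0 Angpt2 UMIs, which with their few UMIs allows a level of up to 104 CPM.

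**Figure D3:**
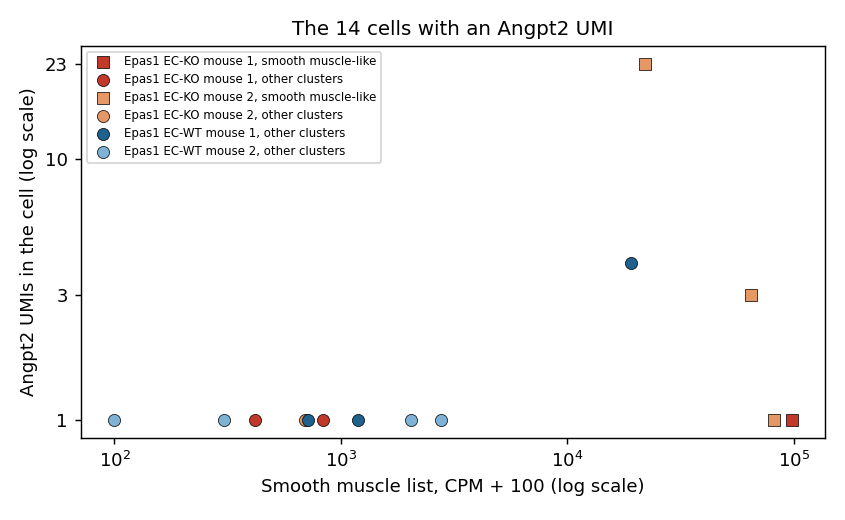
Angpt2 UMIs in each of the 14 cells with at least 1 (vertical, log scale) against the summed smooth muscle list in that cell (CPM plus 100, log scale); squares are smooth muscle-like cells, circles are remaining cells, colours are mice. Cells with more than 1 Angpt2 UMI, at 3, 4 and 23, all lie to the right, with high smooth muscle lists, and the other remaining cells hold 1 UMI each. Among the squares there is no such order: those with the highest lists (97856 and 81433 CPM) hold 1 UMI each. The cell with 23 UMIs has the lowest list of its cluster (21944 CPM).

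The members differed among the clusters of remaining cells. This is a description, since clusters were drawn from the same cells. Clusters were led by Vmn2r55 (138 cells, shallow, median 2218 UMIs), Meg3 (113), Dcn (90), Chad (62) and Fabp4 with Cd36 (23), the last being genes of fatty acid handling. The 5 leading genes of the Dcn-led cluster were the fibroblast markers Dcn and Lum, then Thbs1, Col8a1 and Edn1. Its summed fibroblast list was 3196 CPM, against 237 to 1879 in the other 4. Its summed endothelial list was 9979 CPM, against 11327 to 15083 in the other 4. Tek averaged 864 ± 188 CPM in the Chad-led cluster, 820 ± 116 in the Meg3-led, 812 ± 64.7 in the Vmn2r55-led and 628 ± 110 in the Dcn-led (SD, n = 4 mice), and 367 ± 108 in the Fabp4-led cluster (n = 3 mice with at least 5 cells). The first 3 did not differ beyond the spread between mice. The Dcn-led cluster was below the Vmn2r55-led in 3 of 4 mice, with EC-KO mouse 1 the exception at 777 against 742. This order depends on the clustering: with 20 principal components, Tek was at 887 CPM in the best match of the Dcn-led cluster, which shared 37 of its 90 cells, and at 800 in that of the Vmn2r55-led.

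The lowest Tek level among remaining cells was in the Fabp4-led cluster in each of the 4 mice. Tek gave 248, 376, 394 and 458 CPM there in EC-KO mouse 1, EC-KO mouse 2, EC-WT mouse 1 and EC-WT mouse 2, against 820, 877, 796 and 608 in the other remaining cells of the same mice. These values rest on 8, 10, 13 and 16 UMIs, and in EC-WT mouse 2 the counting intervals overlapped (262 to 744 against 543 to 679). In thinned cells the share with Tek was 0%, 66.7%, 12.5% and 50% in the cluster against 55.2%, 41.8%, 50.5% and 48.4%, lower in 2 mice and higher in 2, on 3 to 8 cells a mouse. Tie1 did not follow. In the same cells it gave 806, 2031, 1182 and 1603 CPM against 862, 1262, 979 and 1096, higher in 3 of 4 mice. Ptprb gave 2792, 3686, 3514 and 2834 against 3231, 3497, 3076 and 3064, higher in 2 mice and lower in 2. Of 2 further EC genes, Pecam1 was lower in the cluster in all 4 mice (2481 to 3178 against 4740 to 6839) and Cdh5, the gene of VE-cadherin, was higher in all 4 (639 to 1303 against 355 to 573).

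The balance of the receptors needs no scaling to depth. Tek made up 23.5%, 15.6%, 25% and 22.2% of Tek plus Tie1 UMIs in the Fabp4-led cluster, against 48.7%, 41.0%, 44.9% and 35.7% in the other remaining cells. The cluster was lower in all 4 mice. Pooled, the share was 21.2% (16% to 27.1%, exact binomial, counting error only) against 43.4% (42% to 44.8%). Among the 4 other clusters the pooled share stayed between 41.4%, in the Meg3-led, and 48.4%, in the Chad-led. The smooth muscle-like cluster was low as well, at 25.6% (16.4% to 36.8%), an interval that overlaps that of the Fabp4-led. Wells of rows L to P, which held no kept cell, gave 15 UMIs of Tek and 45 of Tie1. These counts were 47 and 175 in the Fabp4-led cluster and 2254 and 2940 in the other remaining cells. The share also varied between mice, and EC-WT mouse 2 had the lowest share outside the Fabp4-led cluster.

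**Figure D4:**
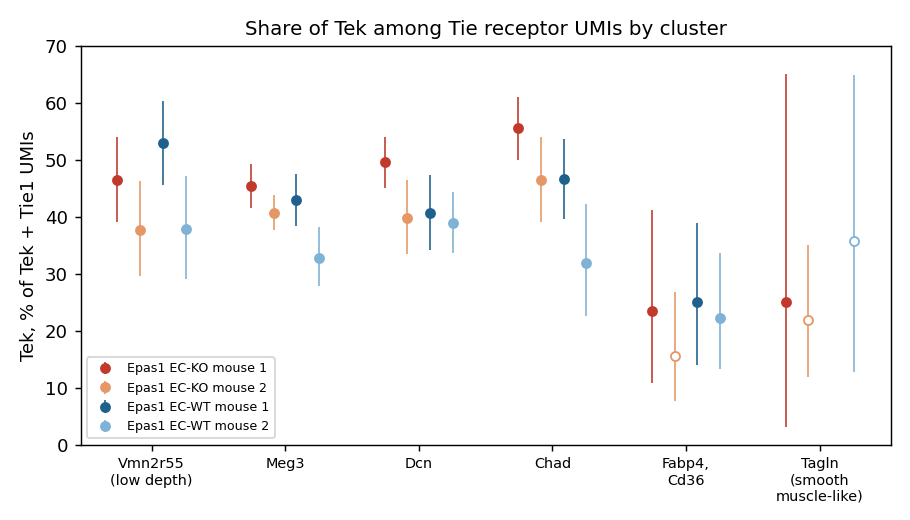
Tek as a percentage of Tek plus Tie1 UMIs in each cluster and mouse, with 95% exact binomial bars; open points have fewer than 5 cells, and mice with 1 cell in a cluster are not drawn. The points of the Fabp4-led cluster lie between 15.6% and 25%, below every mouse in the 4 clusters to their left.

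The same contrast was then drawn by a single gene instead of a cluster, a choice made after the data were seen. Remaining cells with at least 1 UMI of Cd36 numbered 12, 3, 8 and 12, and 20 of these 35 belonged to the Fabp4-led cluster. Tek gave 772, 437, 750 and 540 CPM in them against 805, 871, 778 and 615 in cells without Cd36. It was lower in 4 of 4 mice, but by a mean log2 ratio of only -0.32 ± 0.45 (SD, n = 4; exact sign-flip permutation p = 0.125, the smallest that 4 mice can give; 0.25 adjusted over the 4 genes compared). EC-KO mouse 2, with 3 such cells, gave most of that difference, and without it the mean was -0.10. Pecam1 was lower in 4 of 4 mice too, by a mean log2 ratio of -0.46 ± 0.30 (n = 4, exact permutation p = 0.125, adjusted p = 0.25), and by -0.34 without EC-KO mouse 2. By cluster the mean log2 ratio of Tek was -1.09, from ratios of 0.30, 0.43, 0.49 and 0.75 in the 4 mice. Pecam1 was lower by cluster too, at 0.52, 0.37, 0.46 and 0.67 times its level in the other remaining cells. By Cd36, Tie1 was higher in 3 of 4 mice (mean log2 ratio 0.48 ± 0.38, n = 4, exact permutation p = 0.25, adjusted p = 0.33) and Ptprb in 2 of 4 (-0.11 ± 0.27, n = 4, exact permutation p = 0.625). The difference in Tek was thus smaller by Cd36 than by cluster, and it was not resolved with 4 mice.

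Tie1 averaged 1218 ± 230 CPM in the Meg3-led cluster, 1197 ± 399 in the Fabp4-led (n = 3), 1079 ± 307 in the Vmn2r55-led, 1053 ± 202 in the Chad-led and 854 ± 69.2 in the Dcn-led (SD, n = 4). Neighbours in this order overlapped in mean and SD. Within mice, Tie1 was lower in the Dcn-led than in the Chad-led cluster in all 4, at 790 against 860, 943 against 1061, 873 against 962 and 810 against 1330 CPM. With 20 principal components this was not so, with 1008 CPM in the match of the Dcn-led and 1000 in that of the Chad-led. Ptprb averaged 3426 ± 124 in the Meg3-led, 3323 ± 467 in the Chad-led, 3293 ± 356 in the Dcn-led, 3047 ± 406 in the Fabp4-led (n = 3) and 2534 ± 310 in the Vmn2r55-led cluster. Here too the neighbours overlapped, and with 20 principal components the match of the Dcn-led cluster was highest at 4078 and that of the Chad-led was at 2778. In the clusters as drawn, the shallow Vmn2r55-led cluster had the lowest Ptprb level of remaining cells in each mouse, at 2457, 2985, 2279 and 2415. In thinned cells it remained lowest, at 2406 CPM pooled against 2957 to 3378 in the other 4. The smooth muscle-like cluster was lower than all of these for the 3 genes, with pooled levels of 111 for Tek, 323 for Tie1 and 496 for Ptprb. The 2 cells with the lowest summed smooth muscle list in it (21944 and 29953 CPM, the next at 52128) held 17 of its 20 Tek, 45 of its 58 Tie1 and 80 of its 89 Ptprb UMIs. In the other 13 cells, a division chosen after the data were seen, the levels were 25.7, 111 and 77.2 CPM.

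**Figure D5:**
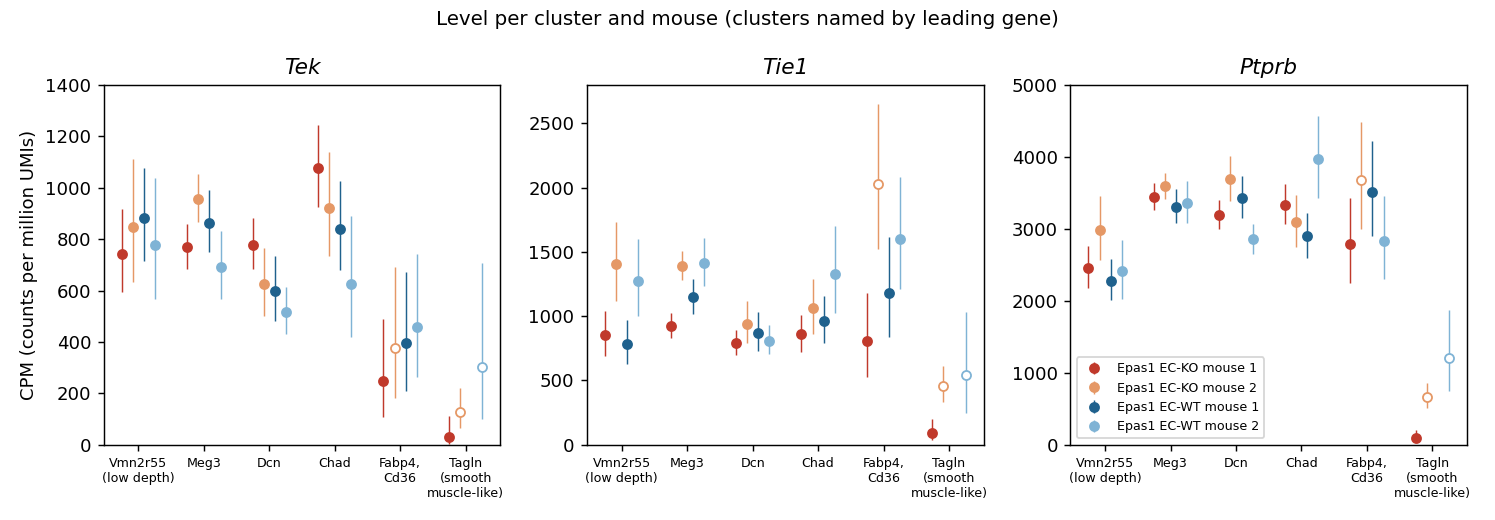
Tek, Tie1 and Ptprb (CPM, linear axes from 0) by cluster and mouse; bars are 95% Poisson intervals, open points have fewer than 5 cells, and mice with 1 cell in a cluster are not drawn. Tek stands at 515 or more in every mouse in the 4 clusters on the left and at 458 or less in the Fabp4-led, where Tie1 runs from 806 to 2031 and Ptprb from 2792 to 3686.

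The spread over remaining cells was taken within each mouse. The highest single cell held 26 to 48 Tek UMIs over the 4 mice, against medians of 3 to 6, and 113 to 142 Ptprb UMIs against medians of 9 to 27. After thinning, the variance of Tek UMIs divided by their mean was 1.07, 1.01, 1.06 and 0.90. For Tie1 it was 0.97, 1.34, 1.27 and 1.33, and for Ptprb 1.56, 1.74, 1.57 and 1.69. This ratio rises with the mean, and thinned means were 0.56 to 0.81 UMIs for Tek, 0.81 to 1.34 for Tie1 and 2.65 to 3.41 for Ptprb, so the genes are not ranked by it. In thinned cells Tek and Tie1 were found together in 31.5%, 29.8%, 25.7% and 35.7% of cells. The product of their separate shares was 30.6%, 30.3%, 26.6% and 32.6%, so joint detection was above the product in 2 mice and below it in 2.

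Correlation over remaining cells, of log-normalized UMIs with depth regressed out within each mouse, was used to name the genes most like each member among 3192 others found in at least 20% of cells of every mouse. All r are means of 4 mice over cells that share depth and plate, and are descriptions. Tek was nearest to Ptprj (r = 0.26), Pecam1 (0.25), Sfrp1 (0.25), Cytl1 (0.25) and Clu (0.24). Ptprj is, like Ptprb, a receptor phosphatase. Tie1 was nearest to Bcam (0.26), Neat1 (0.24), Kcnn4 (0.23), Tmem2 (0.23) and Malat1 (0.22), among them the nuclear noncoding RNAs Neat1 and Malat1. Ptprb was nearest to Vwf (0.33), the von Willebrand factor of Weibel-Palade bodies, followed by Ahnak (0.31), Cmip (0.30), Mmrn2 (0.27) and Foxp1 (0.26). Over mice, r with Ptprb ran from 0.17 to 0.50 for Vwf, 0.01 to 0.48 for Ahnak and -0.09 to 0.63 for Cmip. In thinned cells Pecam1 stood first for Tek and Vwf first for Ptprb among 517 genes. Ptprj fell to rank 116 for Tek, Bcam to rank 118 for Tie1 and Mmrn2 to rank 241 for Ptprb. The 2 receptors were not close to each other (r = 0.06, from -0.05 to 0.21 over mice, rank 716 for Tek). Ptprb had r = 0.19 with Tek (0.08 to 0.29 over mice) and 0.12 with Tie1 (-0.12 to 0.43), and in thinned cells 0.11 and 0.09. Angpt2 was too sparse for this.

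Other genes of the pathway were counted from lists written by hand. None of their members was called between the labelled groups, beside 0.0123% of all genes, and the median log2 fold change of all genes was 0.00. Of 5 secreted ligands, 3 were listed and none passed the filter on low counts. Angpt1, the agonist of Tek, gave 11, 1, 5 and 1 UMIs in remaining cells, and 1 in the smooth muscle-like cells. All 7 cell surface partners were tested (median log2 fold change -0.09). The most abundant were Itgb1, an integrin subunit, at 1205 and 1429 against 1377 and 1401 CPM, and Cdh5, at 371 and 459 against 610 and 506 (log2 fold change -0.40, SE 0.19, adjusted p = 0.879, edgeR). Of 24 genes of intracellular signalling, 17 were tested (median -0.05), led by Nos3, the endothelial nitric oxide synthase, at 551 and 775 against 627 and 502, and by the small GTPase Rac1 at 526 and 576 against 686 and 622.

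Of 16 FOXO factors and FOXO-responsive genes, 11 were tested (median 0.08). Txnip stood at 779 and 982 against 1003 and 693 CPM, Klf6 at 311 and 477 against 254 and 349, and Foxo1 itself, chosen after its values were seen, at 214 and 221 against 234 and 204, with overlapping groups for all 3. All 9 junction partners and substrates of Ptprb were tested (median -0.01), led by Ctnnb1, the gene of β-catenin, at 1175 and 1211 against 1332 and 1121. One of them had an unadjusted p under 0.05, beside 5.45% of all genes tested, and was named for that reason. It was Pxn, the gene of paxillin, at 166 and 180 against 263 and 309 (log2 fold change -0.69, SE 0.19, adjusted p = 0.814, edgeR). Of 16 genes of Weibel-Palade bodies, in which angiopoietin 2 protein is stored, 12 were tested (median -0.05). Vwf stood at 1581 and 1754 against 2063 and 1932. Igfbp7 stood at 544 and 481 against 291 and 371 (log2 fold change 0.67, SE 0.20, adjusted p = 0.814, edgeR). It was the 1 gene of the 12 with an unadjusted p under 0.05, beside 5.45% of all genes tested. Vwf was thus abundant in the remaining cells, in which Angpt2 gave 13 UMIs.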

How the data were processed

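Single CD31+ CD45- cells of 4 mice (2 labelled Epas1 EC-KO, 2 labelled Epas1 EC-WT) were profiled by SORT-seq, 1 plate a mouse. The authors deposited UMI counts, read counts and expected counts of transcripts (UMI counts corrected for identifier saturation) per gene and well, not normalized. The submitters' processing notes name BWA 0.7.15, Seurat and GRCm38 (mm10). UMI counts were the main data. ERCC and mitochondrial rows were left out. The authors' table of well positions, whose values are well numbers, was used to find plate rows. Clusters came from Seurat 5.3.0 under R 4.3.3 (10 principal components, lowest resolution giving 6 clusters, members and pathway lists left out), and no doublet caller was run. Clusters were named from their leading genes by counts per 1000000 UMIs (CPM) plus 50. UMIs per mouse were tested with edgeR 4.0.16 (TMM, quasi-likelihood, threshold 0.05 after Benjamini-Hochberg adjustment). The test was also run on simulated data, with changes larger than those of Tek, Tie1 and Ptprb. That run does not show whether changes as small as theirs would be called. DESeq2 1.42.0, other filters, cell sets and counts, and leaving out each mouse were alternatives. Expected counts were rounded. Python 3.11.15, scipy 1.17.1 and matplotlib 3.10.9 were used otherwise. Each p of the comparison of labelled groups measures spread between mice, 2 a group (1 in a group with a mouse left out), and those of the Cd36 contrast measure spread of ratios over 4 mice. Kept cells summed to 566088 to 1088901 UMIs a mouse. The limit of a count of 0 is 3 UMIs. Intervals are at 95% and cover counting error only. Genes named by rule were the members, Epas1, the 2 most abundant genes of each pathway list and any list gene called. The rule also took the 5 genes most correlated with each member and up to 5 leading genes of each cluster. Pxn, Foxo1, Cd36 and single marker genes were named outside this rule. Members and lists were chosen with earlier results of these data known.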

Additional observations from a re-analysis of the deposited data

Results flagged for a closer look

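Angpt2 gave 28 UMIs in the smooth muscle-like cluster, cells that the comparison of the labelled groups does not use, and 23 of them lay in 1 cell. Wells of plate rows L to P, which held no kept cell, gave 15 UMIs of Tek, 45 of Tie1 and 79 of Ptprb, each above the 3 UMIs that a count of 0 allows. With 2 mice a group, whether 1 mouse stands apart from its group was not tested.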

How the results depend on the processing

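No setting called Tek, Tie1 or Ptprb between the labelled groups (adjusted p from 0.455 to 1.00 over 51 fits), and Tek and Ptprb kept their direction. The log2 fold change of Tie1 turned to -0.028 with all kept cells. Leaving out 1 mouse gave 0.11 to 0.53 for Tek, -0.23 to 0.29 for Tie1 and 0.13 to 0.19 for Ptprb, the lone mouse of a group being assumed to vary like the others. The 1 gene called became 2 with DESeq2, 2 with at least 50 UMIs, 2 with a minimum of 2000 UMIs, 3 without cells over 3 times the median UMIs, 10 with all kept cells, 20 with no filter on low counts, 0 with thinned cells (147 at an unadjusted p under 0.05), 0 with read counts (673) and 20 to 77 with 1 mouse left out. With the replicate number as a block it was 0 (350), and the block moved Tek to 0.32, Tie1 to 0.03 and Ptprb to 0.16. Mice of the same number deviated with r = -0.04. With 2 mice a group, this single value cannot show whether mice of the same number were paired. The difference in thinned share of cells with Tek turned from -0.39 to 1.54 percentage points unthinned and to 3.92 with a minimum of 2000 UMIs. With 1 mouse left out it ran from -5.63 to 4.84 for Tek, -3.73 to 9.83 for Tie1, -5.71 to -0.88 for Angpt2 and 0.50 to 4.46 for Ptprb. In the Fabp4-led cluster thinning moved the mean of Tek to 208 and of Tie1 to 1597 CPM. With 1 mouse left out Tek ran from 321 to 426, Tie1 from 994 to 1392 and Ptprb from 2813 to 3174. The cluster held 22 of its 23 cells when the members and pathway genes were kept for clustering and 19 with 20 principal components, where 11 of the 15 smooth muscle-like cells fell in a cluster of 91. Angpt2 in the smooth muscle-like cluster dropped from 156 to 37.9 CPM without 1 cell. Its ratio outside that cluster turned from 0.201 to 1.94 with all kept cells, was 0.514 with all of them but that cell, and ran from 0.158 to 0.234 with 1 mouse left out. Where a value moved, the cause was not tested. Angpt2 rests on 13 UMIs in 426 cells.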
